A study of Mus musculus with 12 samples.

Results

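The genes described here are 46 genes of cell division and DNA replication, taken as a module by their symbols. All 46 were among the 24091 genes of the table, and all 46 were among the 15413 genes tested, so no member was lost to the filter on low values. They were read in RNA of inguinal white adipose tissue (iWAT), the subcutaneous depot of the mouse in which beige adipocytes arise, from 12 C57BL/6 mice with 1 library each. The 4 groups held 3 mice each. Cold bBMKO mice carried floxed Bmal1 and Prx1-Cre and were kept at 10 °C for 2 weeks, and cold bBMCtr mice carried floxed Bmal1 without Cre and had the same cold. Ambient bBMKO and ambient bBMCtr mice were of the same genotypes at 22 °C. All 12 mice thus carried the floxed alleles. Prx1-Cre is directed at progenitors and mature adipocytes of subcutaneous fat. The study's captions give an age of 6 weeks for ambient mice, and its methods give 10 to 12 weeks for mice that entered the cold.

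Cells that divide pass through an ordered program. E2F transcription factors switch on the genes of S phase, the MCM helicase is loaded onto replication origins by Cdc6 and Cdt1, and cyclin A and cyclin B with Cdk1 then drive mitosis, in which kinesins, kinetochores and the chromosomal passenger complex move the chromosomes apart. The mitotic genes are switched on later than the S-phase genes, through CHR elements and CCAAT boxes bound by the DREAM and MuvB complexes and by NF-Y. In adipose tissue mature adipocytes rarely divide, and the cells that do include adipocyte progenitors, macrophages, endothelium, lymphocytes of the inguinal lymph node and, in females, mammary epithelium.

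Promoter windows of RefSeq (build GRCm38.p6, 250 bases before to 50 after a start site) were held for 39 of the 46 members. They show what many members share in sequence, which the choice of the genes did not use. The windows shown belong to Mki67 and Top2a, which stand for proliferation in most assays, to Cdk1, which had all the cell cycle motifs, and to Mcm6 and Cdc6, licensing genes that were among the members with the smallest p in the cold. Capitals mark matches on either strand to an E2F site (TTTCCCGC, TTTGGCGC, TTTCGCGC or TTTGCCGC), a CHR (written TTTGAA, and also searched in the less common form TTCGAA), and a CCAAT box. The E-box of Bmal1 with Clock (CACGTG) was searched in the same way.
Mki67: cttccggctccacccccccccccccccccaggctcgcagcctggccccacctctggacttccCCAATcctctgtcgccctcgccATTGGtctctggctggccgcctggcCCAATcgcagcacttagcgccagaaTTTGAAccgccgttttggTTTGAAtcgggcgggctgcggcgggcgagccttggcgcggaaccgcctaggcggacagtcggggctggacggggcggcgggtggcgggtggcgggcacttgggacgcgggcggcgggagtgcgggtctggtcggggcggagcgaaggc
Top2a: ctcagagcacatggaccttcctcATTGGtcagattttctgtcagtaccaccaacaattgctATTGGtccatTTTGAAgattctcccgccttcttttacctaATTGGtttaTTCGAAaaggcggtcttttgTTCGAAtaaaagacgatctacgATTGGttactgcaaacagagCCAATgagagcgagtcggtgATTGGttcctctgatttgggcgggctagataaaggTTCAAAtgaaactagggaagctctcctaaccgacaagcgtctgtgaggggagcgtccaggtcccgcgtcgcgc
Cdk1: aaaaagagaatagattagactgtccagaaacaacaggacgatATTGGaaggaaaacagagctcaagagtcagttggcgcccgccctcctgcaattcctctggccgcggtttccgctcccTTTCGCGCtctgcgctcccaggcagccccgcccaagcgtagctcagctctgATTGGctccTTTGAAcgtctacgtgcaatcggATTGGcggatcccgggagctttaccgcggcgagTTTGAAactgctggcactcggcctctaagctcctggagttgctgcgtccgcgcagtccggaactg
Mcm6: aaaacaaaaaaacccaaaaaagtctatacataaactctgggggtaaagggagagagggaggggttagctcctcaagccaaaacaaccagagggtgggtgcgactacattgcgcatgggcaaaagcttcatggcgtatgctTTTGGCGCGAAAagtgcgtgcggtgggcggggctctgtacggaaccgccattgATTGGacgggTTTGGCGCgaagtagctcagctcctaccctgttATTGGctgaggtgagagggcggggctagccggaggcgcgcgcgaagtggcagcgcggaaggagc
Cdc6: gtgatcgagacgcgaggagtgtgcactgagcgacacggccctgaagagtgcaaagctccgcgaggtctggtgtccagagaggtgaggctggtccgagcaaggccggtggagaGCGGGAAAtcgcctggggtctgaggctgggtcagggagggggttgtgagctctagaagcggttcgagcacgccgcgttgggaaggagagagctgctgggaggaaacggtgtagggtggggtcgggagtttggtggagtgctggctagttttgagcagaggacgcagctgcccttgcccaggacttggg
These windows are chr7:135716330-135716629 for Mki67, chr11:99024140-99024439 for Top2a, chr10:69352863-69353162 for Cdk1 and chr1:128359656-128359955 for Mcm6, all on the minus strand, and chr11:98907901-98908200 on the plus strand for Cdc6.

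With positions counted from the start site of each match's first base (1 is the first transcribed base and -1 the base before it), the Mki67 window held 2 CHR matches, at -116 and -98, and 3 CCAAT matches, at -188, -166 and -141. Top2a, the topoisomerase that untangles chromosomes in mitosis, held 4 CHR and 6 CCAAT matches. Cdk1 held 2 CHR, 3 CCAAT and 1 E2F match. The windows shown for Mcm6 and Cdc6 differed from these. Mcm6 held 3 E2F and 2 CCAAT matches and no CHR, and Cdc6 held 1 E2F match alone. This does not hold for all licensing and fork genes, since Mcm2, Mcm7 and Cdc45 each had a window with a CHR match. The Cdc6 window, from 98907901, lies inside the gene as counted, which starts at 98907889. Bases before that start were not searched, so its matches may not be those of the main promoter.

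Over the 39 members, a CCAAT box was matched in 30 (76.9%), against 41.1% of the 27025 genes of the promoter table. A CHR was matched in 21 (53.8%), against 21.7% of all genes, and all 21 also held a CCAAT box, a combination seen in 9.65% of all genes. An E2F site was matched in 8 (20.5%), against 2.6% of all genes. The E-box was matched in 1 member (2.56%), Tyms, against 8.09% of all genes. A count of 1 is too small to set the members apart. The study screened for E-boxes and their E' variants over wider regions than these windows. Of 115 matches in 42 windows, 2 pairs of different motifs overlapped. A match is only a run of letters, and a window without a match says nothing of the factor. Among the 31 members with a window that were lower in cold bBMKO, 18 held a CHR and 25 a CCAAT box. Among the other 8, 3 held a CHR and 5 a CCAAT box.

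**Figure D1:**
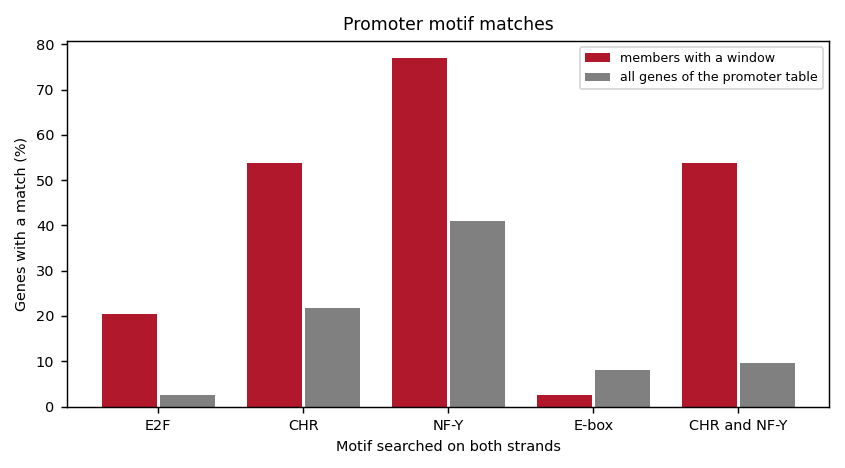
Share of genes (%) with at least 1 match in the promoter window, by motif, for the 39 members with a window (red) and for all 27025 genes of the promoter table (grey). The members stand above all genes for E2F, CHR, CCAAT (NF-Y) and the combination of CHR with CCAAT, and below them for the E-box. The E-box bar of the members rests on 1 gene.

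The libraries held 17887795 to 21436282 counts each, of which 4280 to 18696 fell on the 46 members. Per length, the most abundant members were Pcna, the sliding clamp of DNA polymerase, at a mean of 11.9 FPKM over the 12 libraries, and Mcm7 at 6.33 FPKM, and the least abundant was Ccnb1 at 0.238 FPKM. At this depth Ccnb1 rested on 3 to 52 counts a library, and Mki67 on 152 to 2473. The adipocyte markers Adipoq and Plin1 were at 1083 to 3076 CPM and at 750.5 to 2507 CPM (counts scaled to a common normalized library size) in all libraries. Arntl, which encodes Bmal1, was counted over the whole gene and was higher in bBMKO at each temperature, so it does not check the deletion. Nr1d1 (Rev-erb alpha), a clock gene switched on by Bmal1, was lower in bBMKO, with a log2 fold change of -1.58 in the cold (adjusted p = 6.94e-05 by edgeR) and of -0.90 at ambient temperature (adjusted p = 0.00424).

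Several properties of the libraries moved with the groups. All 6 ambient libraries carried the female transcript Xist at 1313 to 1519 CPM, against at most 2.99 CPM in the 6 cold libraries, which carried the Y-linked Ddx3y at 97.3 to 128 CPM, so temperature and sex cannot be told apart. The study's captions differ on sex, naming male mice for one ambient comparison and female mice for one that spans ambient and cold. Epithelial markers followed the same line. The mean of 31 markers lay between -1.02 and -0.38 log2 CPM in cold libraries and between 4.78 and 5.89 in ambient libraries. Lymphocyte content, as the mean of 30 B and T cell markers, was 1.70, 0.39 and 1.03 log2 CPM in cold bBMKO, against 5.77, 6.15 and 5.49 in cold bBMCtr. It was 0.94, 1.41 and 4.61 in ambient bBMKO, against 6.32, 5.02 and 0.96 in ambient bBMCtr. Lymphocyte content thus separated the genotypes in the cold, where its part in a difference between genotypes cannot be told apart from genotype, and crossed them at ambient temperature. Markers of lymph node stroma and vessels also separated the genotypes in the cold. Their mean was -0.17, -1.25 and -0.57 in cold bBMKO, against 3.27, 3.15 and 2.86 in cold bBMCtr. The mean of skeletal muscle markers ran from 1.97 to 9.04 log2 CPM and overlapped between the genotypes at each temperature.

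In the cold, the division genes were low in bBMKO. By edgeR's quasi-likelihood test, 37 of the 46 members were called lower against cold bBMCtr and 0 higher. A call needed a change of more than 1.5-fold together with p under 0.05 before and under 0.25 after Benjamini-Hochberg adjustment over all genes. Over all genes tested, 13.1% were lower and 9.67% were higher. The median log2 fold change of the members was -1.66, against 0.05 for all genes tested, and 43 of 46 were negative. In 40 members every cold bBMKO library lay below every cold bBMCtr library, which held for 26.9% of all genes. Less RNA of these genes per cell and fewer dividing cells cannot be told apart in bulk tissue.

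Mki67 (chr7:135689788-135716379 in mm10, minus strand), which encodes the proliferation antigen Ki-67 that coats mitotic chromosomes, was at 9.52, 11.1 and 8.43 CPM in cold bBMKO, against 40.8, 116 and 37.3 CPM in cold bBMCtr. The bBMKO libraries were close together and all below the bBMCtr libraries, of which the second stood far above the others. The log2 fold change was -2.74 (SE, the standard error, 0.45, adjusted p = 0.00287), a 6.69-fold lower level. Top2a was at 4.91, 6.77 and 4.66 CPM in cold bBMKO, against 20.4, 58.7 and 17.7 CPM in cold bBMCtr. Its groups did not overlap either, and it was lower by a log2 fold change of -2.57 (SE 0.54, adjusted p = 0.00782).

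**Figure D2:**
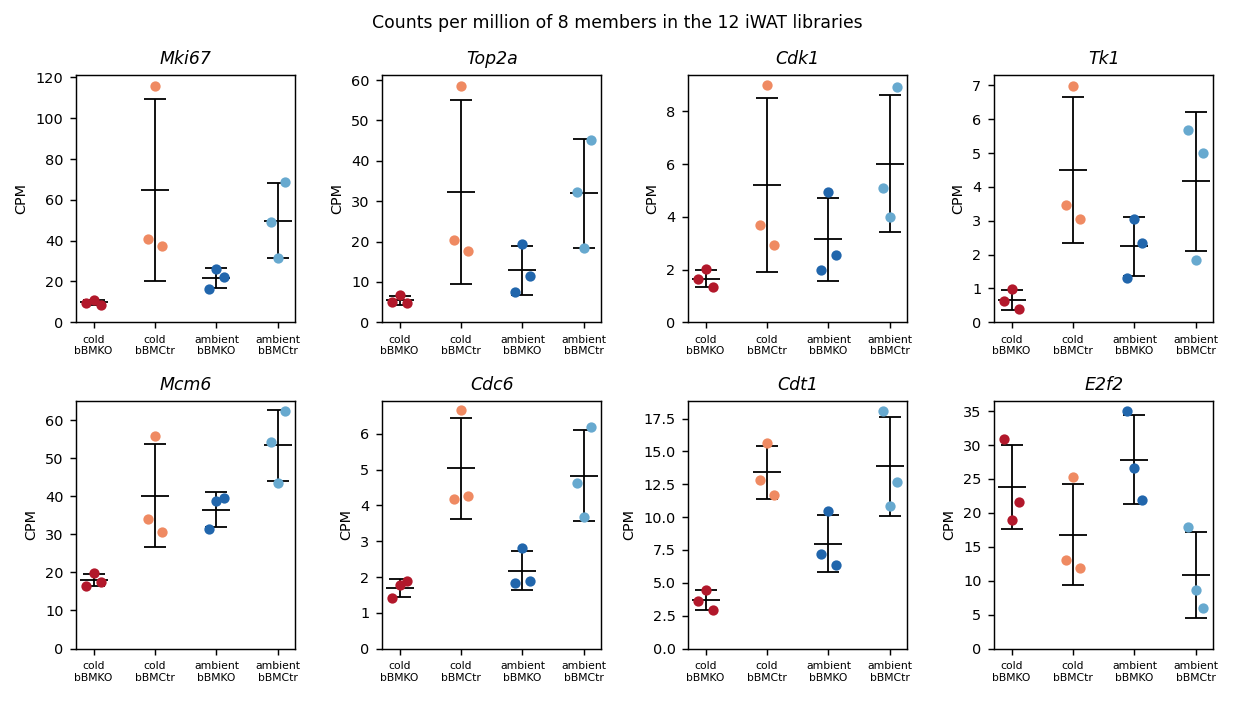
CPM of 8 members in each library (points), with the mean and SD of each group of 3 (bars), in the order cold bBMKO, cold bBMCtr, ambient bBMKO and ambient bBMCtr. Mki67 lay at 8.43 to 11.1 CPM in cold bBMKO and at 37.3 to 116 CPM in cold bBMCtr, and E2f2 ran the other way at ambient temperature.

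Among the 5 transcription factors, 2 were lower in cold bBMKO. E2f8, an atypical E2F that represses E2F targets, had a log2 fold change of -2.15 (adjusted p = 0.0127), and Foxm1, which drives the genes of G2 and mitosis, of -1.66 (adjusted p = 0.0178). Mybl2 (B-Myb, the partner of MuvB at mitotic promoters) had -0.58 and an adjusted p of 0.0905 and fell just short of the fold minimum. The activators E2f1 and E2f2 were not called, at 0.14 (adjusted p = 0.72) and 0.51 (adjusted p = 0.363). E2f2, the member of this group with the highest mean FPKM, was at 30.8, 19.0 and 21.6 CPM in cold bBMKO, against 13.1, 25.3 and 11.8 CPM in cold bBMCtr, so its groups overlapped.

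Among the cyclins and their kinase, 5 of 6 were lower in cold bBMKO. Ccna2, the cyclin of S phase and G2, was at 2.51, 3.62 and 1.33 CPM in cold bBMKO, against 6.74, 20.7 and 6.35 CPM in cold bBMCtr, a log2 fold change of -2.18 (SE 0.59, adjusted p = 0.0194). No library of cold bBMKO reached the lowest of cold bBMCtr. The B cyclins Ccnb1 and Ccnb2, which bring cells into mitosis, had -2.13 and -2.22, and their kinase Cdk1 had -1.65. Ccne1 and Ccne2, the E cyclins of the G1 to S step, had smaller values of -0.68 (called, adjusted p = 0.0975) and -0.38 (not called, adjusted p = 0.506).

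Replication licensing and the fork held 11 members, of which 7 were lower. Cdt1 (chr8:122568015-122573130, plus strand), which with Cdc6 loads the helicase and is removed once S phase begins, was at 3.62, 4.48 and 2.94 CPM in cold bBMKO, against 12.8, 15.7 and 11.7 CPM in cold bBMCtr. It had the smallest p of all members (log2 fold change -1.86, SE 0.26, adjusted p = 0.00133), and its 3 cold bBMCtr libraries lay close together. Cdc6 was at 1.40, 1.78 and 1.89 CPM in cold bBMKO, against 4.18, 6.66 and 4.27 CPM in cold bBMCtr, a log2 fold change of -1.57 (SE 0.28, adjusted p = 0.00405).

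The helicase itself was not uniform. Mcm6 was at 16.5, 19.8 and 17.6 CPM in cold bBMKO, against 34.1, 55.8 and 30.7 CPM in cold bBMCtr, a log2 fold change of -1.16 (SE 0.22, adjusted p = 0.00509). Mcm2, Mcm3, Mcm4 and Mcm5 were lower by log2 fold changes of -1.45, -1.25, -0.99 and -1.82. Mcm7, also a subunit of the ring, had -0.15 and was not called (adjusted p = 0.434), and its exons overlap those of Ap4m1 and Cops6 and hold Mir25 and Mir93. Pcna, the most abundant member, was at 17.3, 22.1 and 19.4 CPM in cold bBMKO, against 23.6, 29.1 and 22.2 CPM in cold bBMCtr. All 3 bBMKO libraries lay below all 3 bBMCtr libraries, by a log2 fold change of -0.35 that was not called (adjusted p = 0.114). Mcm10 (-0.81) and Cdc45 (0.21), both needed to start the fork, were not called.

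In nucleotide supply, 3 of 4 members were lower. Tk1, the thymidine kinase of S phase, was at 0.642, 0.976 and 0.388 CPM in cold bBMKO, against 3.47, 6.99 and 3.04 CPM in cold bBMCtr, a log2 fold change of -2.74 (SE 0.55, adjusted p = 0.00676). Rrm2, the ribonucleotide reductase subunit made in S phase, had -2.05. Its partner Rrm1 was at 25.8, 27.8 and 24.3 CPM in cold bBMKO, against 35.6, 45.99 and 36.8 CPM in cold bBMCtr, and had -0.60 (SE 0.17, adjusted p = 0.0208). Tyms, the thymidylate synthase, had -0.06 and overlapped between the groups.

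All 20 members of the mitotic groups were lower in cold bBMKO, namely 9 of 9 mitotic kinases and checkpoint or anaphase-promoting complex genes, 3 of 3 centromere genes and 8 of 8 genes of the spindle, cytokinesis and chromosome structure. The spindle group had the lowest median of the 7 role groups, at -2.38, against -0.58 in the transcription factors and -1.16 in replication licensing. Bub1b (BubR1, chr2:118598211-118641592, plus strand), which holds anaphase until all kinetochores are attached, was at 3.04, 4.13 and 2.22 CPM in cold bBMKO, against 11.02, 19.8 and 8.80 CPM in cold bBMCtr, a log2 fold change of -2.08 (SE 0.33, adjusted p = 0.00241). Its groups lay far apart.

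Ube2c, the ubiquitin-conjugating enzyme of the anaphase-promoting complex, was at 1.52, 1.84 and 1.17 CPM in cold bBMKO, against 3.77, 10.0 and 3.47 CPM in cold bBMCtr. It had a log2 fold change of -1.93 (adjusted p = 0.0121), and 592 exonic bases of it overlap Tnnc2, a troponin gene of skeletal muscle on the other strand. Cenpa, the histone that marks centromeres, was at 6.07, 3.90 and 2.27 CPM in cold bBMKO, against 7.90, 12.3 and 6.24 CPM in cold bBMCtr, and had -1.11 (adjusted p = 0.0267). The kinase Bub1 had -2.51, the Aurora kinases Aurka and Aurkb had -1.10 and -1.59, Plk1 had -1.53, the spindle kinesin Kif11 had -2.42, and Tpx2, which activates Aurora A on the spindle, had -2.53.

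**Figure D3:**
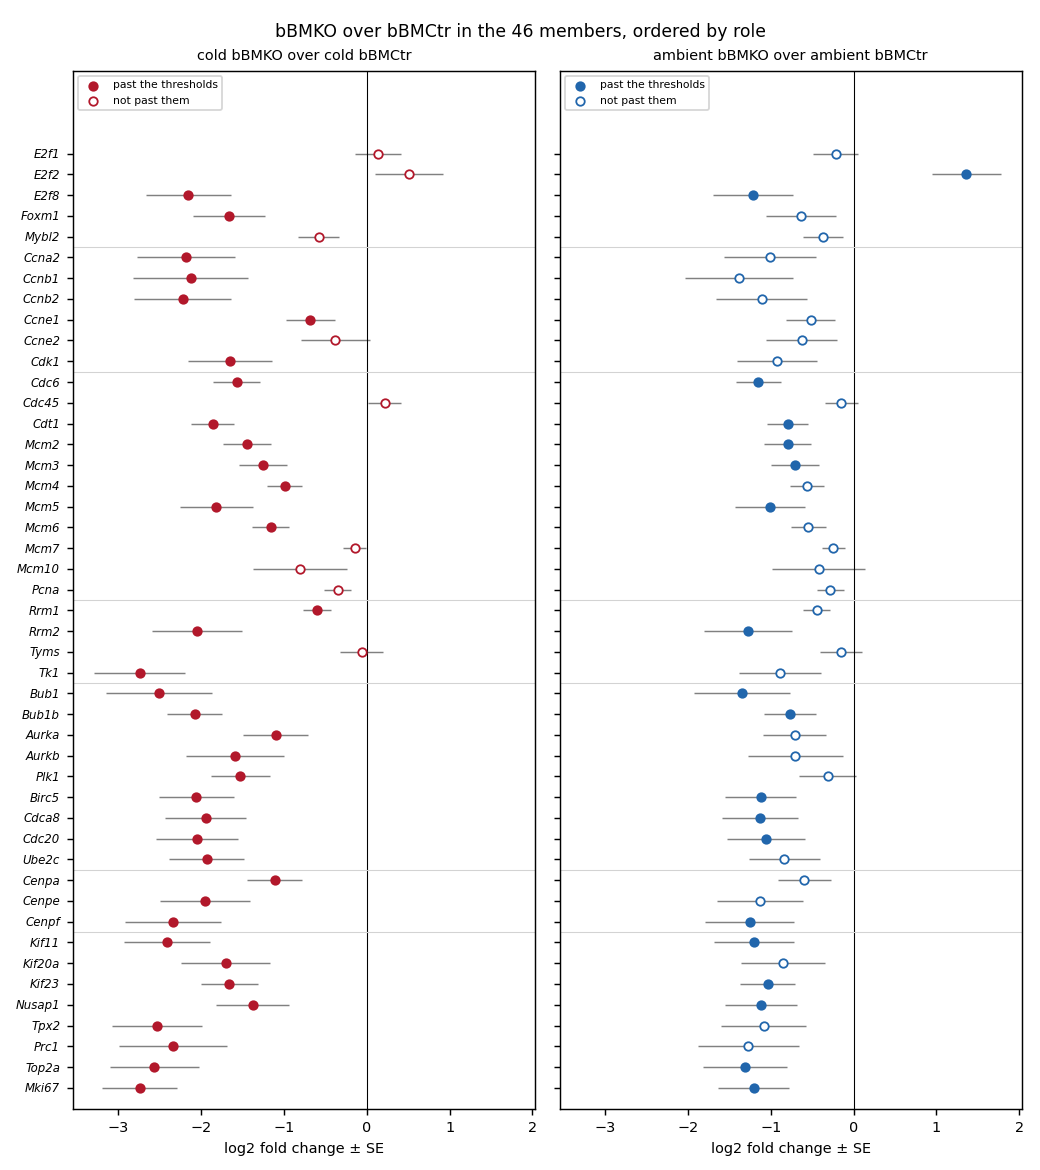
Log2 fold change of bBMKO over bBMCtr with its standard error for each of the 46 members, in the cold (left, red) and at ambient temperature (right, blue), with filled points for members past the thresholds. In the cold 37 members are filled and lower. At ambient temperature 18 are filled and lower and E2f2 is filled and higher.

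The second cold bBMCtr library stood apart, with the highest value of the 6 cold libraries in 43 of 46 members. Without it 30 members were lower and the median was -1.23. It also held the highest lymphocyte mean of the cold libraries, at 6.15 log2 CPM, and the highest myeloid mean among them, at 7.05. Markers of plasma cells set it further apart. Their mean was 4.91 there, against 3.23 and 3.26 in the other cold bBMCtr libraries, and Jchain, which joins secreted antibodies, was at 499.8 CPM there, against 111 and 127 CPM. Whether these took part in its level was not tested.

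At ambient temperature the same comparison gave smaller values. Of 46 members, 18 were lower in ambient bBMKO than in ambient bBMCtr and 1 was higher, against 4.75% lower and 3.88% higher of all genes. The median log2 fold change was -0.84 and 45 of 46 were negative. Every bBMKO library lay below every bBMCtr library in 13 members, against 7.34% of all genes. By role, the lower members were 5 of 11 in replication licensing, 5 of 9 mitotic kinases and checkpoint genes, 5 of 8 spindle and chromosome genes, 1 of 3 centromere genes, 1 of 4 in nucleotide supply, 1 of 5 transcription factors and 0 of 6 cyclins and their kinase, although those 6 had a median of -0.97.

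Mki67 was at 16.2, 26.1 and 22.3 CPM in ambient bBMKO, against 49.0, 31.7 and 68.6 CPM in ambient bBMCtr, a log2 fold change of -1.21 (SE 0.43, adjusted p = 0.149). The groups did not overlap, though the second library of each came close to the other group. Top2a was at 7.53, 19.4 and 11.5 CPM in ambient bBMKO, against 32.2, 18.4 and 45.2 CPM in ambient bBMCtr, and its log2 fold change of -1.32 passed (adjusted p = 0.179) although the groups overlapped.

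Cdc6 was the only member with an adjusted p under 0.05 at ambient temperature. It was at 1.83, 2.80 and 1.89 CPM in ambient bBMKO, against 4.63, 3.67 and 6.19 CPM in ambient bBMCtr, a log2 fold change of -1.15 (SE 0.28, adjusted p = 0.0462). Cdt1 was at 7.17, 10.4 and 6.37 CPM in ambient bBMKO, against 18.1, 10.9 and 12.7 CPM in ambient bBMCtr, a log2 fold change of -0.80 (adjusted p = 0.107). Both members of the loading step were thus separated between the genotypes at each temperature.

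Kif23, the kinesin of the midbody at cytokinesis, was at 3.97, 8.20 and 5.26 CPM in ambient bBMKO, against 12.1, 8.98 and 14.8 CPM in ambient bBMCtr, a log2 fold change of -1.04 (adjusted p = 0.115). Mcm2 was at 9.21, 17.2 and 13.1 CPM in ambient bBMKO, against 27.3, 15.4 and 25.8 CPM in ambient bBMCtr, and had -0.80 (adjusted p = 0.151). The groups of Mcm2 overlapped, since the second bBMKO library lay above the second bBMCtr library.

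E2f2 was the member that ran against the rest. It lies at chr4:136172274-136196056 on the plus strand. E2f2 was at 35.0, 26.6 and 22.0 CPM in ambient bBMKO, against 17.9, 8.59 and 5.92 CPM in ambient bBMCtr, so every bBMKO library was higher. The log2 fold change was 1.36 (SE 0.42, adjusted p = 0.103). In the ambient bBMCtr library where 34 of the 46 members were highest, replicate 3, E2f2 was lowest. E2f2 encodes an activator E2F that is also abundant in developing red blood cells. The mean of 5 erythroid and megakaryocytic markers was 4.82, 5.01 and 4.66 log2 CPM in ambient bBMKO, against 4.65, 4.84 and 5.14 in ambient bBMCtr. At ambient temperature none of the 5 was called. In the cold the mean was 6.00, 5.28 and 5.76 in bBMKO, against 5.23, 4.81 and 5.42 in bBMCtr. Whether such cells took part in the level of E2f2 was not tested.

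The ambient count depended on single libraries. It was 1 without the first bBMKO library (Cdc6), 2 without the first bBMCtr library (Cdc6 and Kif23), 3 without the third bBMCtr library (Cdc6, Cdt1 and Kif23) and 7 without the third bBMKO library, and 24 without the second library of either genotype. With the ambient groups fitted alone it was 8. The medians under these settings lay between -1.16 and -0.53.

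**Figure D4:**
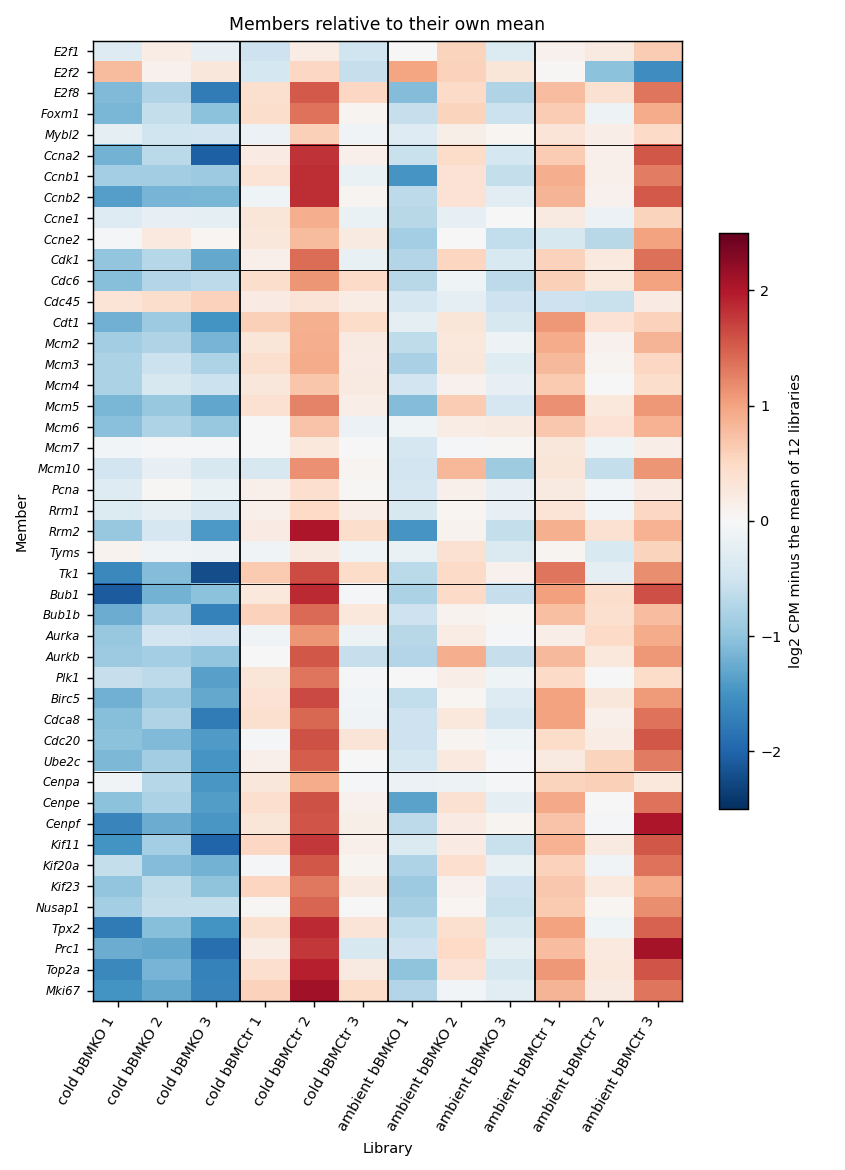
Log2 CPM of the 46 members (rows, in order of role) in the 12 libraries (columns), each row minus its own mean over the 12, with red above and blue below the mean. The cold bBMKO columns are blue in most rows, the second cold bBMCtr library and the third ambient bBMCtr library are the reddest, and E2f2 and Cdc45 differ from the other rows.

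The members varied together across libraries. The mean of all 46 was 1.67, 1.89 and 1.52 log2 CPM in cold bBMKO, 2.75, 3.78 and 2.61 in cold bBMCtr, 1.95, 2.80 and 2.25 in ambient bBMKO and 3.15, 2.62 and 3.51 in ambient bBMCtr. Of the 6 ambient libraries, the third of bBMCtr was highest in 34 members and the first of bBMKO lowest in 38. Of the 6 cold libraries, the third and the first of bBMKO were lowest in 26 and 16 members.

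These levels were then set against the lymphocyte content of each library. At ambient temperature they ran together in some libraries and not in others. The first bBMCtr library was high in both, with a lymphocyte mean of 6.32 and a member mean of 3.15. The first bBMKO library was low in both, at 0.94 and 1.95. The second libraries were at 5.02 and 2.62 in bBMCtr and at 1.41 and 2.80 in bBMKO. The third bBMCtr library had few lymphocytes (0.96 log2 CPM) and the highest mean of the members (3.51), and the third bBMKO library had many (4.61) and a low mean (2.25). Cd22 of B cells and Cd4 of T cells show the same split, at 3.07 and 3.88 CPM in the third bBMCtr library and at 62.9 and 42.8 CPM in the third bBMKO library. Among the 3 ambient libraries with the lowest lymphocyte means, the 2 of bBMKO lay below the 1 of bBMCtr in 45 of 46 members. Among the 3 with the highest, the 1 of bBMKO lay below both of bBMCtr in 38 of 46 and above them in 2, E2f2 and Cdc45. No test was made on these libraries, which were sorted by the markers, and the share of all genes split in this way was not computed. Each split rests on 1 library on one side, and the members varied together, so these are not counts of independent genes.

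**Figure D5:**
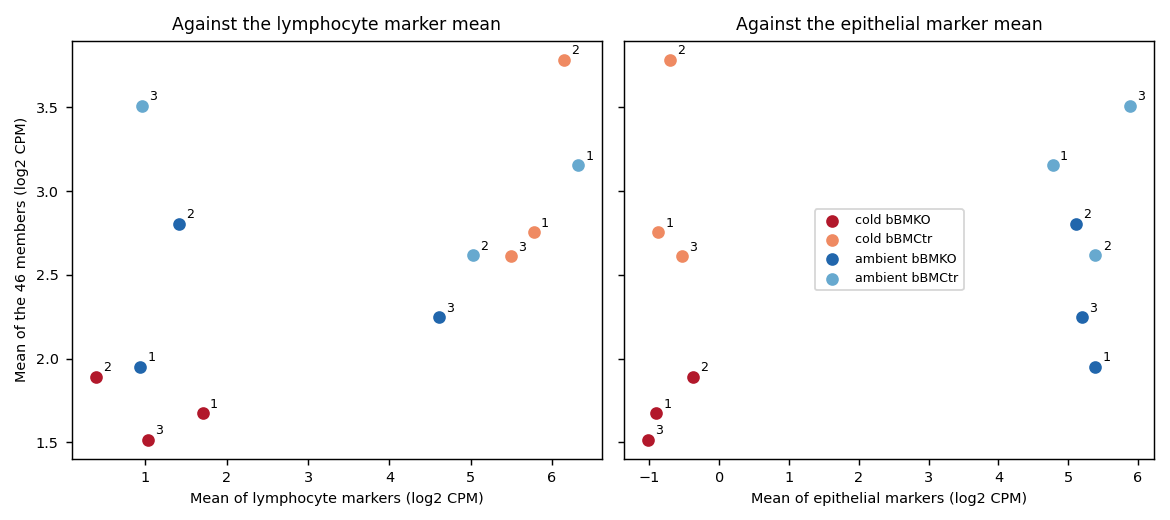
Mean log2 CPM of the 46 members in each library against the mean of the lymphocyte markers (left) and of the epithelial markers (right), with colours for groups and numbers for replicates. In the cold the genotypes form separate clusters on the lymphocyte axis, at ambient temperature they do not, and on the epithelial axis the cold and ambient libraries are apart.

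A further fit had a term per group and the lymphocyte and epithelial means as covariates. In it 0 of 46 members had a slope on the lymphocyte mean called at an adjusted p under 0.05, against 1.8% of all genes with a positive slope. So small a share can leave none in a set of 46, so this count does not set the members apart. The median slope of the members was -0.10 log2 per unit of the marker mean and 39 of 46 were negative. An unadjusted p under 0.05 was seen in 2 members, Cdc45 and Tyms, both with negative slopes, and DESeq2 and limma also called 0. In the same fit 12 of 14 B cell markers and 16 of 16 T cell markers were called. These markers make up the lymphocyte mean, so their calls were set in advance and say nothing of the fit's power for the members. Mki67 had a slope of -0.03 (SE 0.16) and Top2a of -0.11 (SE 0.19). With both means in the fit, 7 members were lower in cold bBMKO (median -2.22) and 3 in ambient bBMKO (median -1.04), against 37 and 18 without them. With the lymphocyte mean as the only covariate, 33 were lower in cold bBMKO and 16 in ambient bBMKO. In the cold the lymphocyte mean does not overlap between the genotypes.

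No member followed the epithelial mean (0 of 46, against 0% of all genes, with 0 of 46 at an unadjusted p under 0.05 and 0 by DESeq2 and limma). In the same fit none of the 22 simple epithelial markers was called either, although 16 of them had an unadjusted p under 0.05, so the fit had little power for epithelial content. Krt19 and Krt18, the simple keratins with the highest CPM of the list, were at 0.892 to 5.17 and 0.222 to 1.49 CPM in the cold libraries and at 229.9 to 529.7 and 205 to 354 CPM in the ambient libraries.

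Within each temperature, 8 relations of Mki67 and Top2a to the 2 marker means were computed over 6 libraries. For the lymphocyte mean the libraries fell into separate clusters of 3 at each temperature, so no pooled correlation is given. In the cold these clusters were the genotypes. The adjusted p given below were taken over all 8 relations, with those of the lymphocyte mean included. The slopes within groups above rest mostly on the ambient libraries. That mean ran from 0.94 to 4.61 in ambient bBMKO and from 0.96 to 6.32 in ambient bBMCtr. In the cold it ran only from 0.39 to 1.70 in bBMKO and from 5.49 to 6.15 in bBMCtr, so the slopes cannot decide the relation there. For the epithelial mean at ambient temperature, Mki67 had r = 0.25 (exact permutation p = 0.66, adjusted p = 0.788, two-sided) and rho = 0.20 (exact p = 0.714, adjusted p = 0.816), and r was -0.16 without bBMCtr libraries 1 and 3. In the cold Mki67 had r = 0.19 (exact p = 0.717, adjusted p = 0.788) and rho = 0.49 (exact p = 0.356, adjusted p = 0.711), and r was 0.92 over the 4 libraries left without the third bBMCtr and second bBMKO libraries. Top2a had r = 0.17 at ambient temperature (exact p = 0.788, adjusted p = 0.788) and rho = 0.03 (exact p = 1, adjusted p = 1), with r = -0.41 without bBMCtr libraries 1 and 3. In the cold Top2a had r = 0.22 (exact p = 0.667, adjusted p = 0.788) and rho = 0.49 (exact p = 0.356, adjusted p = 0.711), with r = 0.92 without the third bBMCtr and second bBMKO libraries. None of the 4 relations to the epithelial mean passed, and each moved with the 2 libraries left out.

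Other cells of the depot were looked at in the same way. The mean of 10 macrophage and myeloid markers was 6.79, 6.86 and 6.66 log2 CPM in cold bBMKO, against 6.57, 7.05 and 6.31 in cold bBMCtr, and 6.21, 7.43 and 6.36 in ambient bBMKO, against 6.94, 6.79 and 6.72 in ambient bBMCtr. In a fit chosen after the data were seen, with that mean as the covariate, 2 members had a called positive slope (Aurkb and Mcm5), against 1.45% of all genes, 29 had an unadjusted p under 0.05, and all 46 slopes were positive with a median of 0.89. With this covariate 38 members were lower in cold bBMKO and 20 in ambient bBMKO. The mean of 8 adipose progenitor markers was 7.53, 7.63 and 7.46 log2 CPM in cold bBMKO, against 7.23, 7.32 and 7.23 in cold bBMCtr. At ambient temperature it was 7.65, 8.11 and 7.56 in bBMKO, against 7.73, 7.89 and 7.91 in bBMCtr. For its slope 0 members were called, against 0% of all genes, and 10 had an unadjusted p under 0.05. Of the 46 slopes, 45 were positive, with a median of 1.64. With this covariate 38 members were lower in cold bBMKO (median -2.25) and 16 in ambient bBMKO (median -0.77). For the slopes on the myeloid and progenitor means, the share of all genes at an unadjusted p or of either sign is not given here. These counts and medians of slopes thus do not set the members apart from all genes. The mean of 8 adipocyte markers was 11.29, 11.41 and 11.54 log2 CPM in cold bBMKO, against 11.03, 10.81 and 11.11 in cold bBMCtr, and 11.03, 10.68 and 10.95 in ambient bBMKO, against 10.02, 10.57 and 10.58 in ambient bBMCtr. The bBMKO libraries lay above the bBMCtr libraries at each temperature, and 3 of the 8 markers were called higher in the cold and 2 at ambient temperature. The part of this difference in the members' levels was not tested.

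In controls no member was called in cold bBMCtr over ambient bBMCtr (0 lower and 0 higher by edgeR and DESeq2, against 11.3% lower and 3.48% higher of all genes), 1 had an unadjusted p under 0.05, and 24 of 46 were negative. That member, Cdc45, was at 7.90, 8.59 and 7.74 CPM in cold bBMCtr, against 4.73, 4.59 and 7.86 CPM in ambient bBMCtr (log2 fold change 0.50, adjusted p = 0.129). E2f1 was at 7.19, 11.6 and 7.26 CPM in cold bBMCtr, against 11.04, 11.97 and 16.1 CPM in ambient bBMCtr (log2 fold change -0.58, adjusted p = 0.207). Without the second cold bBMCtr library 4 members were lower (Ccnb2, E2f1, Mcm6 and Prc1) and the median was -0.50. Sex, epithelial content and, by the ages the study gives, age differ between the same groups and cannot be told apart from temperature.

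In bBMKO, 14 members were lower in the cold and 1 was higher, against 12.4% lower and 6.41% higher of all genes, with a median of -0.85. Mcm6 was at 16.5, 19.8 and 17.6 CPM in cold bBMKO, against 31.4, 38.7 and 39.5 CPM in ambient bBMKO, a log2 fold change of -1.02 (SE 0.22, adjusted p = 0.0078). Cdt1 had -1.12 (adjusted p = 0.0113), Bub1b -1.12 (adjusted p = 0.0318), Tk1 -1.74 (adjusted p = 0.0438) and Mcm2 -0.80 (adjusted p = 0.0678). Mki67 had -1.15 (adjusted p = 0.0813). Cdc45, which with the MCM ring and GINS forms the moving helicase, was higher. It was at 8.64, 9.24 and 10.2 CPM in cold bBMKO, against 5.04, 5.70 and 4.75 CPM in ambient bBMKO, a log2 fold change of 0.86 (SE 0.20, adjusted p = 0.0115), and 209 of its exonic bases overlap Ufd1 on the other strand. With the epithelial mean as a covariate the direction of the set turned, with a median of 0.40, 18 of 46 negative, and 1 member lower (E2f2). Without the third cold bBMKO library or the second ambient bBMKO library 4 were (Bub1b, Cdt1, Mcm6 and Tk1 each time).

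Whether the genotype difference was itself larger in the cold libraries was tested as an interaction. Those libraries also differ from the ambient ones in sex and, by the ages the study gives, in age. In this contrast temperature cannot be told apart from these. No member passed by edgeR, against 0.766% of all genes, while 5 had an unadjusted p under 0.05 (Cdt1, Bub1b, Mki67, Tk1 and Plk1), all with a more negative difference in the cold. DESeq2 called 1 of them, Cdt1. Cdt1 had an interaction of -1.07 (SE 0.35, adjusted p = 0.523) and Bub1b of -1.30 (SE 0.45, adjusted p = 0.553). The median over the members was -0.81 and 41 of 46 were negative. Without the first ambient bBMCtr library 6 members passed.

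Of 142 other cell cycle genes, 86 were lower in cold bBMKO, against 13.1% of all genes, and 46 in ambient bBMKO, against 4.75% of all genes. The other 56 and 96 were not called. The lists, like the members, were chosen with earlier results of these data known, so these counts are no independent check. Of 50 replication genes, 23 were lower in cold bBMKO and 15 in ambient bBMKO, each set against its control. Dnmt1, which copies DNA methylation behind the fork, had a log2 fold change of -1.01 (adjusted p = 0.00158), Cdc7, the kinase that fires origins, -1.18 (adjusted p = 0.00194) and Pold1, the catalytic subunit of polymerase delta, -1.19 (adjusted p = 0.0029) in the cold. At ambient temperature the smallest p were those of Pole, of polymerase epsilon, at -1.09 (adjusted p = 0.0531), Prim1, of primase, at -0.83 (adjusted p = 0.0673) and Pold1 at -0.73 (adjusted p = 0.0698).

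Of 70 other mitosis genes, 58 were lower in cold bBMKO and 31 in ambient bBMKO. Wee1, the kinase that holds Cdk1 inactive, was at 9.40, 12.1 and 10.2 CPM in cold bBMKO, against 24.4, 20.8 and 28.1 CPM in cold bBMCtr, a log2 fold change of -1.21 (adjusted p = 0.00103). At ambient temperature it had -0.71 (adjusted p = 0.0337). Wee1 is also known as a gene of the circadian clock, induced by Clock and Bmal1. It was not highest in the second cold bBMCtr library, unlike most members. Smc4, a core subunit of condensin, and Cdc25b, the phosphatase that activates Cdk1, had -1.70 and -1.13 in the cold. At ambient temperature Kif18a, a kinesin that aligns chromosomes, and Cdkn3, a phosphatase of Cdk1, had -1.20 and -1.61.

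Genes of G1 entry and its brakes gave fewer calls. Of 22, 5 were lower in cold bBMKO and 0 in ambient bBMKO, where 5 had an unadjusted p under 0.05, and the median was -0.12 at each temperature. The lower ones included Cdk6, the kinase of the D cyclins, with a log2 fold change of -0.94, Rbl1 (p107), a pocket protein that restrains E2F, with -0.84, and Myc with -0.66. Ccnd1 (cyclin D1) was lower in the cold in each genotype, by -1.19 in bBMKO and -1.21 in bBMCtr. None of these 142 other cell cycle genes was higher in bBMKO than in bBMCtr at either temperature.

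Exons of 15 of the 46 members overlap another gene in GENCODE M21, and a processed copy is named for 4 (Ccnb1, Ccnb2, Pcna and Tyms). Whether counting used the strand is not given in the sources used here, so reads shared in these places may have been lost or assigned to the other gene.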

How the data were processed

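RNA of iWAT from 12 mice (3 in each of 4 groups, 1 library per mouse, grouped by the sample labels) was sequenced. The authors aligned reads to mm10 with STAR and made the deposited counts with HTSeq-count on GENCODE annotations. The deposited log2 values are log2 of FPKM plus 0.1, made by the authors. The submitters' processing notes also name DESeq2, limma and edgeR. Tool versions and the strand setting: not given in the sources used here.

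The filter kept genes whose FPKM passed 0.1 in 50% or more of the libraries. Counts were scaled by TMM and fitted over all 12 libraries with a term per group by quasi-likelihood (glmQLFit, glmQLFTest) with edgeR 4.0.16 under R 4.3.3, with Benjamini-Hochberg adjustment over all 15413 genes. The thresholds for a call by edgeR, from the study's methods, were a 1.5-fold change, an unadjusted p under 0.05 and an adjusted one under 0.25. Slopes on marker means (log2 CPM, prior count 2) were called at an adjusted p under 0.05. Named genes were Mki67, Top2a, the member of highest mean FPKM in each role group, up to 5 called members a direction and comparison by smallest p (2 if none), and up to 3 called genes a direction from each other cell cycle list. The members and lists were chosen with earlier results of these data known. Members' values in every library are shown for these, and other members are given by fold change or count.

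Libraries held 17887795 to 21436282 counts, and mice are the replicates, so p-values measure the spread between mice. No pair of libraries in a group was a duplicate (chi-square per gene 16.6 to 111). The fit was tested on simulated data. Alternatives were DESeq2 1.42.0, RLE factors, no scaling factors beyond library size, edgeR's own filter or none, only the groups compared, limma 3.58.1 on log2 FPKM, a replicate block, stricter calls, marker means as covariates and each library left out. Promoters are from RefSeq (GRCm38.p6). The last 30 bases of 35 of the 42 windows were found in a GENCODE M21 transcript of the same gene. Sequences of 7 members (Foxm1, Ccna2, Ccne2, Mcm4, Aurkb, Kif20a and Tpx2) were not used here. Correlations were tested over all 720 orders of 6 libraries with scipy 1.17.1.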

Additional observations from a re-analysis of the deposited data

How the results depend on the processing

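Members lower in cold bBMKO than in cold bBMCtr numbered 37, 30 to 38 under every alternative except the lymphocyte and epithelial means together, which left 7 (Cdc6, Cdt1, Foxm1, Kif11, Kif23, Mki67 and Tpx2) with a median log2 fold change of -2.22. Leaving out each library gave 30 to 38. Members lower in ambient bBMKO numbered 18, against 1 at an adjusted p under 0.05 with no fold minimum, 8 with only the groups compared and 3 with both marker means (Cdc6, Cdt1 and Kif23), and 1 to 24 with a library left out. E2f2 was the 1 higher member there, and 0 were higher at an adjusted p under 0.05, with only the groups compared and, at the lowest of a range of 0 to 1, with a library left out. In cold bBMCtr over ambient bBMCtr, where none was called, 1 was lower with library size alone, with only the groups compared and with the replicate block (E2f1 each time), 2 were higher with the lymphocyte mean (Ccne2 and Cdc45), and leaving out a library gave 0 to 4 lower and 0 to 2 higher. In cold bBMKO over ambient bBMKO, 14 were lower, against 4 at an adjusted p under 0.05, 1 with the epithelial mean, 0 with both means and 22 with only the groups compared, and 4 to 15 with a library left out. The 1 higher member, Cdc45, was lost with both means (0). The interaction, 0 in the fit reported, gave 1 with DESeq2 and 0 to 6 with a library left out. Slopes on the lymphocyte and epithelial means gave 0 called members under every alternative run.

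With the epithelial mean as a covariate the median of the members in cold over ambient was 0.40 in bBMKO, against -0.85 without it, and 1.09 in bBMCtr. These log2 fold changes turned positive: E2f1 1.99 and Ccnd1 1.86 in bBMCtr, and Cenpf 3.63, Kif11 2.53, Mki67 0.62, Prc1 3.28, Top2a 0.38, Tpx2 0.49, Ube2c 3.33, Wee1 1.69 and Ccnd1 1.81 in bBMKO. With both means Bub1b 1.17, Cenpf 0.82, Ube2c 3.23 and Wee1 1.52 did so in bBMKO. The epithelial mean differs between temperatures without overlap, so these fits carry its slope within groups across that gap.

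With library size alone the median of all genes was -0.17 in the cold and -0.13 at ambient temperature, and the members' medians were -1.88 and -0.95. Replicate numbers do not pair the mice. Same-numbered libraries correlated between -0.70 and 0.45 in their deviations from group means. With the replicate block 36 members were lower in cold bBMKO and 20 in ambient bBMKO, and 12 in cold bBMKO over ambient bBMKO. Ccnb1, with 3 to 52 counts a library, is the member that depth limits most, and 3 mice a group limit all tests.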
